A study of Mus musculus with 12 samples.

Results

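The response of the mouse liver to bile duct ligation (BDL) was compared between 2 genotypes. For each gene, BDL minus sham in mice without factor VII-activating protease (FSAP-/-) was set against BDL minus sham in wild-type (WT) mice. All 12 arrays of the series entered this comparison, 1 array per mouse and 3 mice in each of 4 groups: Sham-WT, BDL-WT, Sham FSAP-/- and BDL_FSAP-/-. The mice were 20 to 30 weeks old, and their livers were taken 2 weeks after the operation. All 4 groups came from crosses of heterozygous mice after backcrossing to BALB/c for no more than 3 generations, so the genetic background was not fully fixed. WT mice were the littermates of the FSAP-/- mice, and the labels give neither sex nor the deleted part of Habp2, the gene that encodes FSAP. Of the genes on the array, 19531 were well above background on at least 3 arrays and were tested. The series title puts the question as whether FSAP limits liver fibrosis.

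FSAP is a serine protease that hepatocytes release into the blood, where it acts on coagulation factors and on growth factors such as PDGF. Ligation of the common bile duct dams up bile, which injures hepatocytes, makes bile ducts proliferate, draws in macrophages and neutrophils, and turns stellate cells into collagen-producing myofibroblasts. Whole liver was measured throughout, so a change in the number of cells of a type and a change in RNA per cell cannot be told apart.

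Levels below are log2 values relative to the array's 75th percentile. The interaction is the FSAP-/- response minus the WT response on the log2 scale. A positive value means that ligation moved the gene further up, or less far down, in FSAP-/- livers. Errors beside it are standard errors (SE) of the limma model, and p-values were adjusted over all genes tested.

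Habp2 checked the genotype labels. It stood at 5.37, 5.46 and 5.51 on the Sham-WT arrays and at 5.15, 5.03 and 4.97 on the BDL-WT arrays. On the Sham FSAP-/- arrays it stood at -3.45, -6.74 and -6.71, and on the BDL_FSAP-/- arrays at -7.18, -6.98 and -6.95. Only replicate 1 of the Sham FSAP-/- group was above background among the FSAP-/- arrays. That array also lay alone on its slide and was scanned apart from the others. Signal of Ddx3y and Eif2s3y, genes of the Y chromosome, was above background on 3 of the 12 arrays, namely replicate 1 of Sham FSAP-/- and replicates 1 and 2 of BDL_FSAP-/-. None of the 6 WT arrays had this signal. Xist, a marker of female tissue, was above background on every array without this signal and on none of the 3 arrays with it. Genotype and Y-linked signal are therefore unevenly mixed, and so, by these markers, are genotype and sex. Genotype and slide are unevenly mixed too: slide 1 held both surgeries in WT and slide 3 both surgeries in FSAP-/-. Replicate 1 of BDL-WT was the only ligated array on slide 1, and replicate 3 of Sham FSAP-/- the only sham array on slide 3. Values given as within slides rest on these single arrays. Arrays of 1 group correlated at 0.971 to 0.993, and the median SD of a gene was 0.158 in Sham-WT, 0.241 in BDL-WT, 0.243 in Sham FSAP-/- and 0.290 in BDL_FSAP-/- livers. The hepatocyte markers Alb, Apoa1, Ttr, Serpina1a and Asgr1 were above background on every array.

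Most of the liver's response to ligation ran the same way in both genotypes. In WT livers 15.1% of the genes rose and 17.7% fell, and in FSAP-/- livers 16.2% rose and 22.8% fell. The 4706 genes called in both made up 73.4% of the WT calls and 61.7% of the FSAP-/- calls. Of these, 4671 moved in 1 direction and 35 in opposite directions. Across genes, which are not independent replicates, the responses correlated at r = 0.805 (Spearman's rho 0.745). Among the 4043 genes that rose in the mean of both responses, the median rise was 1.02 in WT and 1.26 in FSAP-/- livers, and 58.0% rose further in FSAP-/-. Among the 5472 genes that fell, the medians were -0.70 and -0.78, and 57.3% had a negative interaction. That share is near the background, since 42.8% of all genes tested had a positive interaction.

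**Figure D1:**
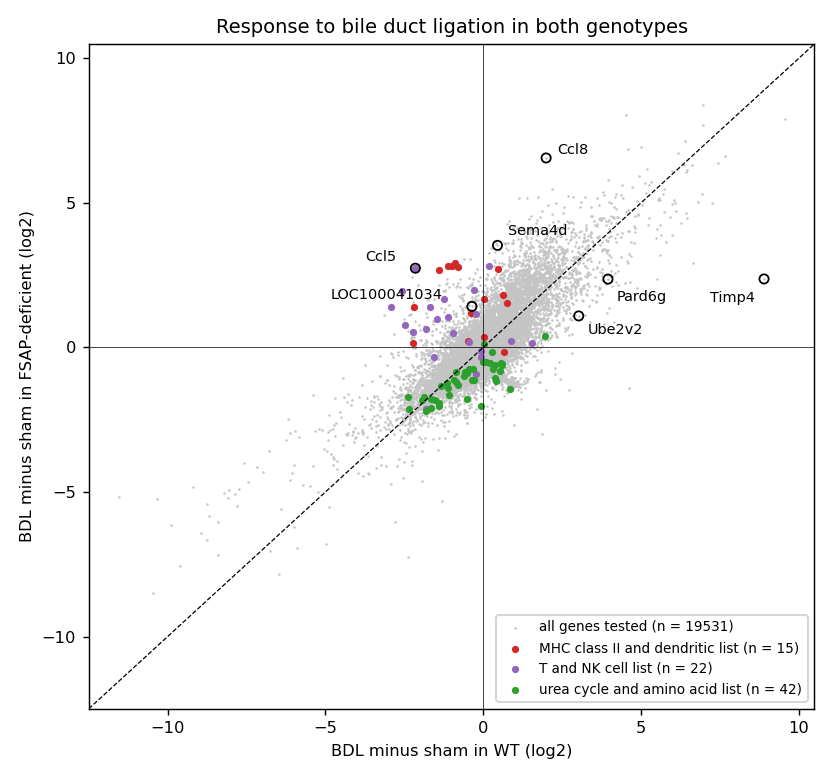
BDL minus sham in WT (x axis) against BDL minus sham in FSAP-/- livers (y axis), both in log2, for the 19531 genes tested (grey); the dashed line marks equal responses, and 3 gene lists and 7 named genes are marked. Most genes lie along the line (r = 0.805), while class II and T cell genes lie above it, several of them at the upper left, and urea cycle and amino acid genes lie mostly below it.

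Few single genes passed the test of the difference itself. The interaction was called for 2 of 19531 genes (0.0102%), both positive (0.0102%), and for no gene in the negative direction (0%). Without adjustment, 2674 genes (13.7%) had p below 0.05, of which 1157 (5.92%) were positive and 1517 (7.77%) negative. These shares are the background for the counts of list members given below. At an adjusted p below 0.1 there were 24 genes, 18 positive and 6 negative. Over all genes tested, 42.8% had a positive interaction, the median was -0.08, the quartiles were -0.35 and 0.25, and the median SE was 0.32. The count depended on the Y-linked signal. With that signal as a covariate, which is estimated within the FSAP-/- groups because no WT array carries it, 365 genes (1.87%) were called, 167 positive (0.855%) and 198 negative (1.01%). Without the 3 arrays that carry it, which leaves 2 Sham FSAP-/- arrays and 1 BDL_FSAP-/- array, 264 genes (1.35%) were called. This single array, replicate 3, is assumed to vary like the other groups. Every value given without the arrays with Y-linked signal rests on it. The fits with the covariate and without these arrays shared 166 called genes, and both included the 2 genes called in the full model.

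Sema4d, a class 4 semaphorin on lymphocytes and myeloid cells that signals through plexin-B receptors, was 1 of these 2 genes (probe at 13:51796617-51796676, mm9). It stood at -3.50, -4.21 and -3.88 on the Sham-WT arrays and at -3.34, -3.57 and -3.32 on the BDL-WT arrays. It stood at -5.61, -4.89 and -5.68 on the Sham FSAP-/- arrays and at -1.72, -1.92 and -1.93 on the BDL_FSAP-/- arrays. The FSAP-/- arrays thus lay lowest before ligation and highest after it, and neither FSAP-/- group overlapped any other group. The response was 0.45 in WT (adjusted p = 0.164). No Sham FSAP-/- array was above background, so the rise in FSAP-/- livers is given as at least 8.48-fold (adjusted p = 7.87e-06). The fitted interaction was 3.08 (SE 0.33, adjusted p = 0.0244), and its size rests in part on those levels below background.

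LOC100041034, a predicted gene that the array files describe as similar to the nuclear body protein Sp110, was the other. Its probe lies on an unplaced piece of chromosome 1 (mm9), and near-identical relatives may share its signal. It stood at -2.09, -2.13 and -2.01 on the Sham-WT arrays, at -2.48, -2.39 and -2.43 on the BDL-WT arrays, at -2.76, -2.45 and -2.46 on the Sham FSAP-/- arrays, and at -1.07, -1.33 and -1.004 on the BDL_FSAP-/- arrays. Every BDL_FSAP-/- array lay above every other array. The interaction was 1.78 (SE 0.20, adjusted p = 0.0244), from a WT response of -0.36 (adjusted p = 0.0731) and a rise of 1.42 in FSAP-/- livers (adjusted p = 4.89e-05). Of the 2 called genes, Sema4d was a larger response of the same sign and LOC100041034 a response of the opposite sign, though neither WT response passed the test.

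Neither call was stable to the loss of 1 array. Without replicate 1 or 3 of Sham-WT, replicate 1 of BDL-WT, replicate 1 or 3 of Sham FSAP-/-, or replicate 1 or 2 of BDL_FSAP-/-, 0 genes were called, and the adjusted p of Sema4d lay between 0.0505 and 0.156. Sema4d was the only call without replicate 2 of either sham group. The count was 22 without replicate 2 of BDL-WT, 8 without replicate 3 of BDL-WT and 8 without replicate 3 of BDL_FSAP-/-. The size of the difference moved less: over the 12 arrays left out in turn, Sema4d lay between 2.90 and 3.33 and LOC100041034 between 1.68 and 1.87. With slide as a fixed block, which compares the response on slide 3 with that on slide 1, they stood at 3.30 (adjusted p = 0.104) and 1.73 (adjusted p = 0.111).

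**Figure D2:**
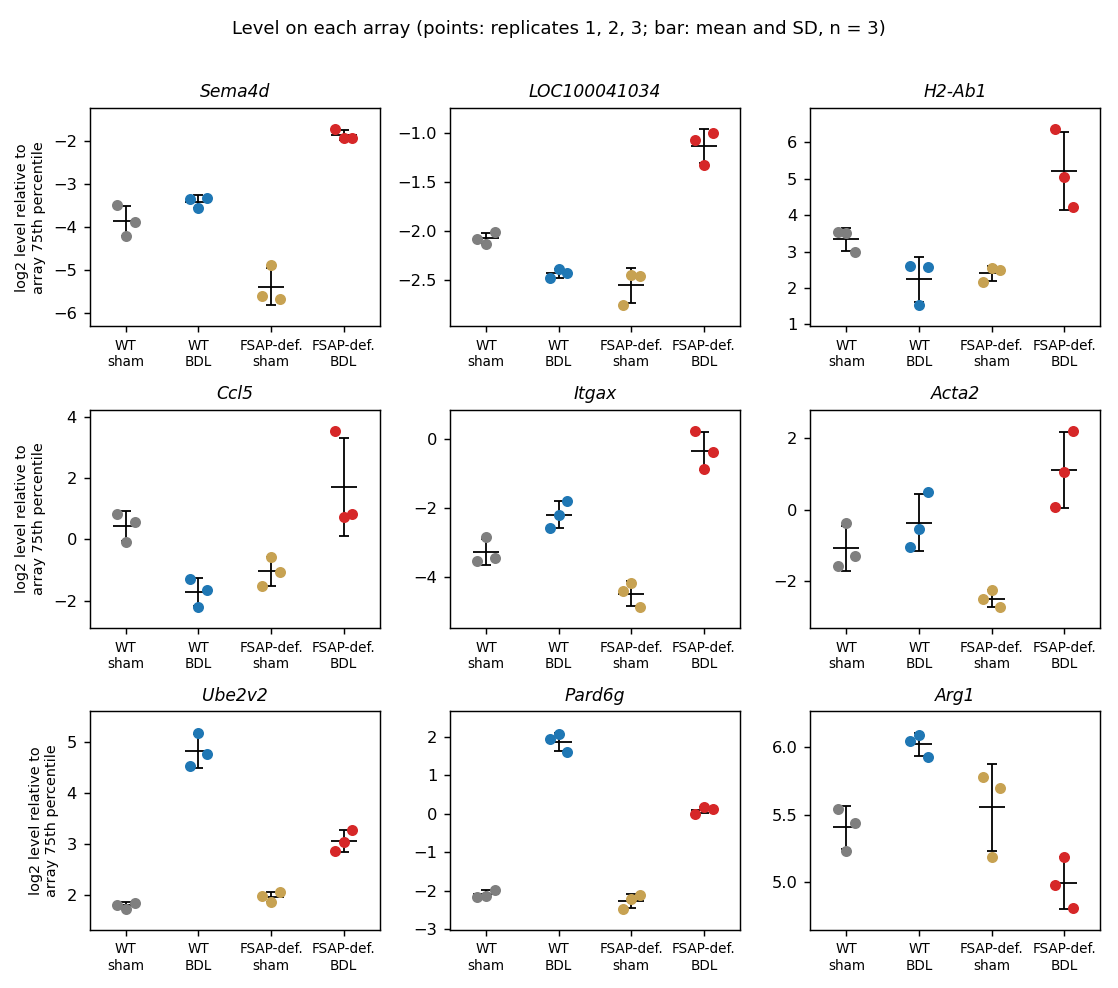
Level of 9 genes on each of the 12 arrays (y axis, log2 relative to the array's 75th percentile), by group on the x axis; points are replicates 1 to 3 from left to right, and bars give the mean and SD (n = 3). In Sema4d the FSAP-/- arrays lie lowest after sham and highest after BDL, in Ccl5 the groups part in opposite directions, and in Ube2v2 and Pard6g the rise in WT exceeds that in FSAP-/-.

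No other gene passed the threshold in the full model. By smallest p, the positive genes after Sema4d included Map4k1, Itgax, Phlda3, Ccl8, Csn3, H2-DMb1, Itgb7 and Slamf9, with adjusted p of 0.0727 for Map4k1, 0.0922 for Itgax and 0.0944 for the others named. Itgax encodes the integrin CD11c of dendritic cells and macrophages. It stood at -3.53, -2.82 and -3.45 on the Sham-WT arrays and -2.57, -2.21 and -1.78 on the BDL-WT arrays, against -4.40, -4.15 and -4.86 on the Sham FSAP-/- arrays and 0.24, -0.86 and -0.39 on the BDL_FSAP-/- arrays. It rose by 1.08 in WT and by 4.13 in FSAP-/- livers, an interaction of 3.05 (SE 0.45). Map4k1, a kinase of blood cells, stood at -0.17 after BDL against sham in WT (adjusted p = 0.525) and rose by 1.82 in FSAP-/- livers.

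The chemokine gene Ccl8 was not above background on any sham array of either genotype, and rose at least 2.75-fold in WT and at least 26.4-fold in FSAP-/- livers. Its BDL_FSAP-/- arrays stood at 0.80, -1.27 and -0.20, above the BDL-WT arrays at -3.19, -4.02 and -3.02. Between the ligated groups, where it was above background on all arrays, FSAP-/- stood 3.19 above WT (SE 0.50, adjusted p = 0.0406). Phlda3, a p53 target that restrains Akt, rose in both genotypes, by 2.44 in WT and 4.01 in FSAP-/- livers. Over the 22 p53 targets tested, Phlda3 among them, the median interaction was 0.10, and 12 were positive. Below an unadjusted p of 0.05, 4 were positive and none negative, against 5.92% and 7.77% of all genes. These 4 included Gdf15 (interaction 1.84, adjusted p = 0.112) and Pmaip1 (interaction 1.62, adjusted p = 0.173), which also rose further in FSAP-/- livers. The adhesion gene Itgb7 and the receptor gene Slamf9 had interactions of 2.81 and 2.02, and Csn3, which encodes the milk protein kappa-casein, was not above background on any sham array and rose at least 8.54-fold in FSAP-/- livers. With Y-linked signal as a covariate, all 20 genes with the smallest p, 10 in each direction, passed the threshold. They were chosen by p in the same contrast on the same arrays, so this is no separate evidence. With slide as a fixed block none of them passed.

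Genes of MHC class II, which presents peptides to CD4 T cells, had positive interactions that did not pass the threshold in the full model. H2-Ab1, which encodes a class II beta chain, stood at 3.53, 3.51 and 2.97 on the Sham-WT arrays and at 2.61, 1.52 and 2.57 on the BDL-WT arrays. It stood at 2.17, 2.55 and 2.51 on the Sham FSAP-/- arrays and at 6.36, 5.05 and 4.23 on the BDL_FSAP-/- arrays. The BDL_FSAP-/- arrays lay above all others, while the BDL-WT arrays lay below the Sham-WT arrays. H2-Ab1 rose by 2.81 in FSAP-/- livers (adjusted p = 0.000998) and stood at -1.11 in WT (adjusted p = 0.0952), an interaction of 3.91 (SE 0.66, adjusted p = 0.0944). H2-Eb1, another beta chain, fell by 1.41 in WT and rose by 2.68 in FSAP-/- livers. H2-DMb1, a subunit of the peptide loader, had an interaction of 3.80 (SE 0.60), and Cd74, the invariant chain that guides class II molecules through the cell, had 3.79 (SE 0.67, adjusted p = 0.108). Without replicate 3 of BDL_FSAP-/-, the lowest array of its group for each of these genes, all 4 were called (adjusted p = 0.0472 for each). With other arrays left out their adjusted p in the same test reached 0.255. With slide as a fixed block it lay between 0.227 and 0.255.

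The promoters of 3 of these genes are shown because the interactions of the genes lay close together (3.56 to 4.09) and class II promoters are known to carry a Y box, an inverted CCAAT motif bound by NF-Y. Each line gives the 150 bases before the start of transcription from RefSeq (GRCm38.p6). Capitals mark GATTGG on either strand and TGATGATG on either strand, the second chosen after these promoters were read; the motifs do not overlap here. H2-Aa was added after its values were seen (interaction 3.56, adjusted p = 0.112). The stretches are 17:34305717-34305866 on the plus strand for H2-Eb1, 17:34153041-34153190 on the plus strand for H2-DMb1 and 17:34287824-34287973 on the minus strand for H2-Aa.
H2-Eb1: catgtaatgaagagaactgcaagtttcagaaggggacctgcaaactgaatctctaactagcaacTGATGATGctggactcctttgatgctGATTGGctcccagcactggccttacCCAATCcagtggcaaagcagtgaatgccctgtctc
H2-DMb1: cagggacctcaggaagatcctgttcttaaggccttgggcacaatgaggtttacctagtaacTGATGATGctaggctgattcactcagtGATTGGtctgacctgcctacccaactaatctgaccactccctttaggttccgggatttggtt
H2-Aa: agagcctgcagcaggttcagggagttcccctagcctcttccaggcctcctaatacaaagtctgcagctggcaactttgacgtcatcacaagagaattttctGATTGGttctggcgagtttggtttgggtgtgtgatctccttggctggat

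On the strand of the gene, GATTGG began 60, 62 and 49 bases before the start in H2-Eb1, H2-DMb1 and H2-Aa, and H2-Eb1 held a further copy on the opposite strand. TGATGATG was present in H2-Eb1 and H2-DMb1, 86 and 89 bases before the start. Of 11 class II genes listed, 8 had a promoter in the table, and all 8 held GATTGG within 250 bases before the start, against 14.6% of all 32851 promoters. TGATGATG was in 2 of the 8 and in 1.24% of all promoters. Those 2 are H2-Eb1 and H2-DMb1, which were read before the motif was chosen, so this count is no separate evidence. A match describes the letters only.

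The list of class II genes and dendritic cell markers had 15 members tested, and 10 rose in FSAP-/- livers with none falling, against 2 that rose and 3 that fell in WT. Its median interaction was 2.24, beside -0.08 over all genes. Of the 15, 11 had a positive interaction with unadjusted p below 0.05 and 1 a negative one, Zbtb46, a transcription factor of conventional dendritic cells, at -0.80. The level of the list on an array, the median over its members relative to Sham-WT, was -0.40, -1.07 and -0.25 on the BDL-WT arrays and 1.73, 0.71 and 0.71 on the BDL_FSAP-/- arrays. The Sham FSAP-/- arrays stood at -0.92, -0.19 and -0.34, with the array that carries Y-linked signal lowest. The median interaction was 2.50 within slides, 1.73 without replicate 1 of Sham FSAP-/- and 1.52 without the arrays with Y-linked signal. With that signal as a covariate 6 members were called, all positive. The part of Y-linked signal and slide in these values was not tested.

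Markers of T and natural killer (NK) cells had lower responses in WT than in FSAP-/- livers. Of 22 tested, 11 fell and 1 rose in WT, while 2 fell and 7 rose in FSAP-/-. The median response was -1.18 in WT and 0.70 in FSAP-/-, and the median interaction was 2.22, with 12 positive and 1 negative member below an unadjusted p of 0.05. Ccl5, a chemokine of activated T cells, stood at 0.85, -0.09 and 0.56 on the Sham-WT arrays, -1.30, -2.20 and -1.63 on the BDL-WT arrays, -1.52, -0.56 and -1.05 on the Sham FSAP-/- arrays and 3.54, 0.72 and 0.84 on the BDL_FSAP-/- arrays. The sham and BDL groups did not overlap in either genotype, and they parted in opposite directions. Ccl5 fell by 2.15 in WT and rose by 2.74 in FSAP-/- livers, an interaction of 4.89 (SE 0.91, adjusted p = 0.111).

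Cd3g, a chain of the T cell receptor complex, was not above background on any BDL-WT array and was at least 3.46-fold lower there than in Sham-WT. In FSAP-/- livers it stood at 1.41 after BDL against sham (adjusted p = 0.0916). Cd2, an adhesion molecule of T cells, fell by 2.21 in WT and stood at 0.54 in FSAP-/- (adjusted p = 0.248). Perforin (Prf1) went the other way, with a rise of 0.88 in WT and 0.24 in FSAP-/- (adjusted p = 0.288). The level of the T and NK list was -1.57 on replicate 1 of Sham FSAP-/- against -0.27 and -0.58 on its group mates, and 0.85 on replicate 1 of BDL_FSAP-/- against -0.37 and -0.29. Both outlying arrays carry Y-linked signal, and replicate 2 of BDL_FSAP-/- (-0.37), the lowest of its group, carries it too. The part of that signal was not tested. The median interaction was 1.68 without replicate 1 of Sham FSAP-/-, 1.34 without all 3 arrays with Y-linked signal and 1.77 within slides.

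Of 40 interferon-induced genes tested, 15 fell and 1 rose in WT, and 1 fell and 10 rose in FSAP-/- livers. The median interaction was 1.19, and 22 members were positive with unadjusted p below 0.05 and none negative. Gbp4, an interferon-induced GTPase, fell by 2.05 in WT and rose by 2.17 in FSAP-/- (interaction 4.23, SE 0.82, adjusted p = 0.112). Ifi44 fell by 1.22 and rose by 1.33 (interaction 2.55), and Oas2, which senses double-stranded RNA, fell by 1.22 in WT and stood at 0.68 in FSAP-/- (adjusted p = 0.0576). On the BDL-WT arrays the list stood at -0.78, -0.76 and -0.76. On the BDL_FSAP-/- arrays it stood at 0.72, -0.42 and -0.29, so replicate 1 alone was above the Sham-WT level, and the median was 0.70 without the arrays with Y-linked signal.

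Of 35 macrophage markers, 28 rose in WT and 32 in FSAP-/-, none fell in either, and the median interaction was 0.89. In this list 19 members were positive and 1 negative below an unadjusted p of 0.05, against 5.92% and 7.77% of all genes. Ccr2, the receptor that brings monocytes into tissue, rose by 2.19 in WT and 3.76 in FSAP-/-. Aif1 stood at 0.45 in WT (adjusted p = 0.142) and rose by 1.73 in FSAP-/-, while the tetraspanin gene Cd9 rose by 2.65 in WT and 1.92 in FSAP-/-. The list level was 1.50, 1.60 and 1.66 on the BDL-WT arrays and 1.90, 2.02 and 2.38 on the BDL_FSAP-/- arrays, without overlap. Adgre1, a surface receptor of macrophages, rose by 0.75 and 1.94 (interaction 1.19, SE 0.34, adjusted p = 0.172), and Spp1, which encodes osteopontin, by 3.81 and 5.38 (interaction 1.58, adjusted p = 0.333).

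Among 30 cytokines and chemokines the median interaction was 1.15, and 10 were positive and none negative at an unadjusted p below 0.05. It was 0.67 without replicate 1 of Sham FSAP-/- and 0.75 without replicate 1 of BDL-WT. Cx3cl1, which holds monocytes through CX3CR1, rose by 1.91 in WT and 3.58 in FSAP-/- (interaction 1.67, SE 0.34, adjusted p = 0.115). Ccl2, the main ligand of CCR2, rose by 5.18 and 6.19, and the 95% interval of the difference ran from -0.03 to 2.05. Of the 20 neutrophil markers tested none had an unadjusted interaction p below 0.05, and their median interaction was 0.28, or -0.03 without replicate 1 of Sham FSAP-/-.

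**Figure D3:**
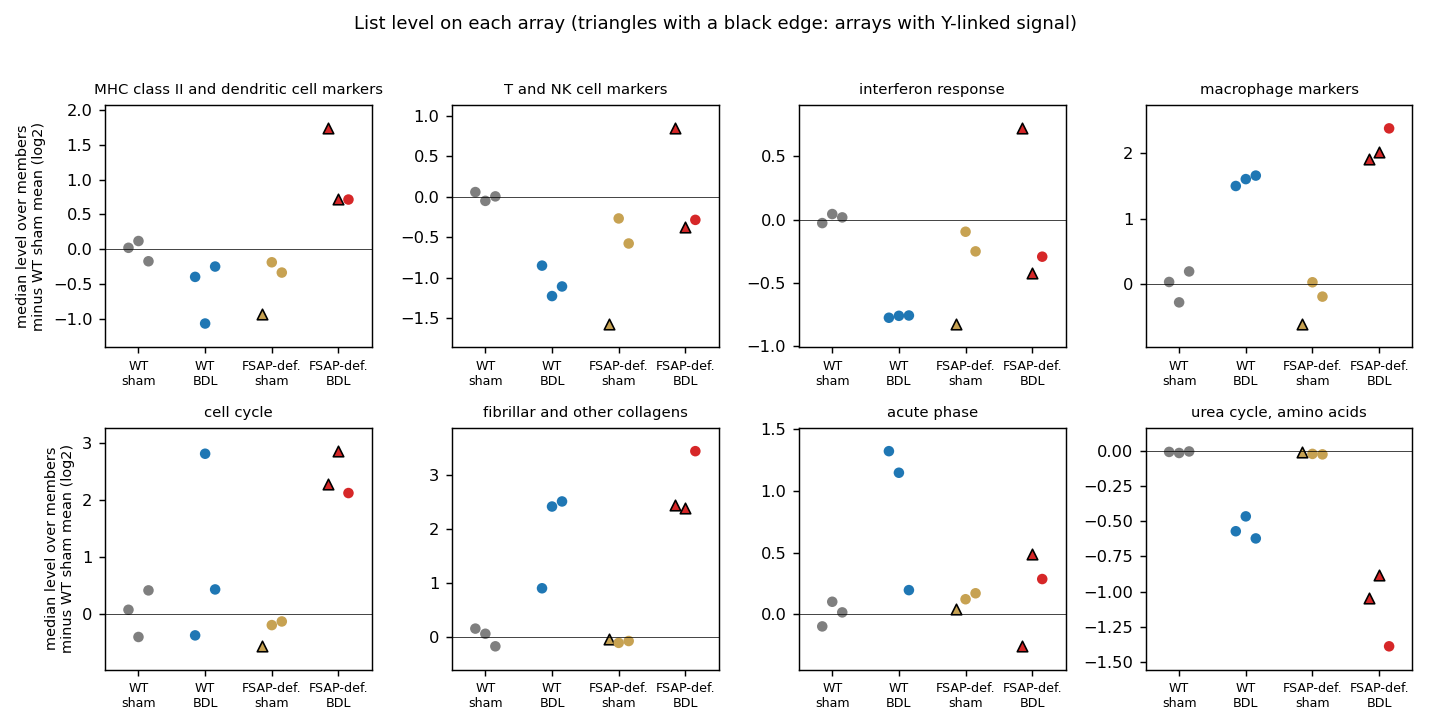
Median level of 8 gene lists on each array relative to the Sham-WT mean (y axis, log2), by group on the x axis; triangles with a black edge are the 3 arrays with Y-linked signal. In the class II, T and NK and interferon lists the BDL-WT arrays lie below the Sham-WT arrays, replicate 1 of Sham FSAP-/- lies below at least 2 of the 3 BDL-WT arrays, and replicate 1 of BDL_FSAP-/- lies highest of all arrays; in the cell cycle list replicate 2 of BDL-WT (2.81) lies among the BDL_FSAP-/- arrays.

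Of 46 cell cycle genes tested, 35 rose and 3 fell in FSAP-/-, against 1 and 1 in WT, and the median interaction was 1.65. The list level was -0.37, 2.81 and 0.43 on the BDL-WT arrays and 2.27, 2.85 and 2.12 on the BDL_FSAP-/- arrays. Replicate 2 of BDL-WT thus stood with the FSAP-/- group: the median was 2.61 without it and 1.003 without replicate 1 of BDL-WT. It was 2.78 within slides, where replicate 1 of BDL-WT is the only ligated WT array, and 1.095 without the arrays with Y-linked signal. Mki67, a marker of dividing cells, stood at -1.81, 1.73 and -0.76 on the BDL-WT arrays and at 0.72, 1.09 and 1.21 on the BDL_FSAP-/- arrays (interaction 2.98, SE 1.02, adjusted p = 0.246). Cdt1, which licenses replication origins, had the smallest p of the list, with -0.26 in WT (adjusted p = 0.523) and a rise of 1.54 in FSAP-/- (interaction 1.79, SE 0.40, adjusted p = 0.125). Against the list, 3 members were negative below an unadjusted p of 0.05, namely Tyms, Tpx2 and Cdc45. Tyms, which encodes thymidylate synthase, stood at 0.27 in WT (adjusted p = 0.371) and fell by 0.62 in FSAP-/-.

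Of the fibrosis genes, which bear on the question in the series title, none had a called interaction. Acta2 encodes smooth muscle actin, the hallmark of myofibroblasts. It stood at -1.58, -0.37 and -1.29 on the Sham-WT arrays, -1.05, -0.54 and 0.51 on the BDL-WT arrays, -2.50, -2.24 and -2.70 on the Sham FSAP-/- arrays and 0.08, 1.07 and 2.21 on the BDL_FSAP-/- arrays. Sham and BDL overlapped in WT and were apart in FSAP-/-. The response was 0.72 in WT (adjusted p = 0.338) and a rise of 3.60 in FSAP-/-, and the interaction 2.88 (SE 0.76, adjusted p = 0.158). Part of it lay in the sham groups, where FSAP-/- stood 1.40 below WT (-1.40, adjusted p = 0.532).

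The main chain of collagen I, Col1a1, stood at 0.85, 2.75 and 2.97 on the BDL-WT arrays and at 3.40, 2.92 and 4.93 on the BDL_FSAP-/- arrays. These groups overlapped. Col1a1 rose by 3.94 in WT and 5.78 in FSAP-/-, with an interaction of 1.84 (SE 0.87, adjusted p = 0.385) and a 95% interval from -0.08 to 3.76. The interaction was 2.13 for Col3a1 (adjusted p = 0.272) and 1.43 for Col1a2 (adjusted p = 0.474). Without replicate 1 of BDL-WT the values were 1.17 for Col1a1, 1.42 for Col3a1 and 0.74 for Col1a2. Without replicate 3 of BDL_FSAP-/- they were 1.25 for Col1a1 and 0.86 for Col1a2. Within slides, where replicate 1 of BDL-WT is the only ligated WT array, they were 3.62, 3.43 and 2.71. Without the arrays with Y-linked signal they were 3.39, 3.04 and 2.59. There replicate 3, the highest of its group for Col1a1, Col3a1 and the collagen list, is the only BDL_FSAP-/- array. Over 17 collagens the median interaction was 0.91. Below an unadjusted p of 0.05, 3 were positive and 1 negative, against 5.92% and 7.77% of all genes. The median was 0.59 without replicate 3 of BDL_FSAP-/-, 1.71 within slides and 1.56 without the arrays with Y-linked signal. Col18a1, the source of endostatin, was the negative one at -0.44. Timp1, an inhibitor of matrix metalloproteinases, rose by 6.39 and 7.13, and its interaction of 0.74 had a 95% interval from -2.29 to 3.76.

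Of 30 stellate cell and myofibroblast markers, 8 rose in WT and 17 in FSAP-/-, with a median interaction of 0.77 and 10 positive members below an unadjusted p of 0.05. Thy1, which portal fibroblasts and T cells share, stood at -0.30 in WT (adjusted p = 0.662) and rose by 1.97 in FSAP-/-. The actin-binding protein gene Cnn2 rose by 0.83 and 1.92. Des stood at 0.72 in WT (adjusted p = 0.0989) and rose by 1.42 in FSAP-/-, and Pdgfrb, the PDGF receptor of stellate cells, stood at 0.77 (adjusted p = 0.0755) and rose by 1.97. Among 39 matrix glycoproteins and proteoglycans the median was 0.64. Below an unadjusted p of 0.05, 7 were positive and none negative, against 5.92% and 7.77% of all genes. Mgp, the matrix Gla protein, rose by 2.65 and 4.39, and Hspg2, which encodes perlecan, stood at -0.45 in WT (adjusted p = 0.0637) and rose by 0.56 in FSAP-/-. Replicate 1 of BDL-WT had the lowest level of the collagen, matrix and stellate lists among the 6 ligated livers. Without it the median was 0.37 for the stellate list and 0.26 for the matrix list, and without replicate 3 of BDL-WT it was 0.97 for the matrix list. Within slides, where replicate 1 of BDL-WT is the only ligated WT array, the stellate and matrix medians were 1.38 and 1.23. Without the arrays with Y-linked signal they were 1.13 and 0.85. There replicate 3, the highest of its group for both lists, is the only BDL_FSAP-/- array.

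Among 34 TGF-beta, activin and PDGF genes, 7 were positive and 1 negative below an unadjusted p of 0.05. Over all genes these shares were 5.92% and 7.77%. The median interaction of the list was 0.33. It was 0.17 without replicate 1 of BDL-WT, 0.55 without replicate 3 and 0.58 within slides. The ligand Pdgfb rose by 1.33 in WT and 2.57 in FSAP-/- (interaction 1.24, adjusted p = 0.149). Tgfb1 stood at 0.50 in WT (adjusted p = 0.213) and rose by 1.34 in FSAP-/-, with an interaction of 0.84 (adjusted p = 0.396). Inhbc, an activin subunit made by hepatocytes, stood at -0.33 in WT (adjusted p = 0.429) and fell by 1.50 in FSAP-/-.

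Among genes with a smaller rise in FSAP-/- livers, Ube2v2, a partner of the ubiquitin-conjugating enzyme Ubc13, had the smallest p. It stood at 1.81, 1.73 and 1.84 on the Sham-WT arrays and 1.98, 1.85 and 2.04 on the Sham FSAP-/- arrays, and then at 4.53, 5.18 and 4.75 on the BDL-WT arrays and 2.85, 3.03 and 3.27 on the BDL_FSAP-/- arrays. The sham groups lay close together, and no BDL_FSAP-/- array reached the lowest BDL-WT array. The rise was 3.03 in WT and 1.09 in FSAP-/-, an interaction of -1.94 (SE 0.25, adjusted p = 0.0726). Pard6g, an adaptor of the Par polarity complex, rose by 3.96 in WT and 2.37 in FSAP-/- (interaction -1.59, SE 0.22, adjusted p = 0.0727), with ligated arrays at 1.94, 2.06 and 1.59 in WT and 0.00, 0.17 and 0.12 in FSAP-/-. Pwwp3a rose by 1.77 in WT and stood at 0.38 in FSAP-/- (adjusted p = 0.109).

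Timp4, an inhibitor of metalloproteinases, was among the 10 negative genes with the smallest p (adjusted p = 0.111). It was not above background on any sham array. On the BDL-WT arrays it stood at 2.51, 3.09 and 0.13, a rise of at least 116-fold. On the BDL_FSAP-/- arrays it stood at -6.36, -2.81 and -4.11, with 2 of 3 above background and a rise of at least 1.43-fold. Syn2, which encodes a synapsin, rose at least 13.3-fold in WT and at least 2.59-fold in FSAP-/-, and it too was not above background on any sham array. The genes overlap in the genome, with Timp4 inside an intron of Syn2, and their probes lie at 6:115196120-115196179 and 6:115226390-115226449 (mm9). The other negative genes by smallest p were Atrnl1, Chrng, Atl2, Sptbn4 and Prss51. Chrng, a subunit of the muscle acetylcholine receptor, and Sptbn4, a beta spectrin, were near background, with 3 and 5 arrays above it.

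Opposite responses that both passed the test were found in 35 genes, 25 of them with a gene symbol. Of the 35, 17 fell in WT and rose in FSAP-/-, and 18 rose in WT and fell in FSAP-/-. Since this choice uses the same contrast, their interaction p-values are no separate evidence. None passed after adjustment (adjusted p from 0.0727 to 0.139), and 24 passed with Y-linked signal as a covariate. The first kind held Ccl5, Gbp4, H2-Eb1 and Ifi44. The second kind held Arg1, the last enzyme of the urea cycle. Arg1 stood at 5.54, 5.23 and 5.44 on the Sham-WT arrays, 6.04, 6.09 and 5.92 on the BDL-WT arrays, 5.78, 5.19 and 5.69 on the Sham FSAP-/- arrays and 4.98, 5.19 and 4.81 on the BDL_FSAP-/- arrays. It rose by 0.61 in WT and fell by 0.56 in FSAP-/- (interaction -1.17, SE 0.25, adjusted p = 0.119).

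Of 42 genes of the urea cycle, amino acid metabolism and gluconeogenesis, 19 fell and 2 rose in WT, and 32 fell and none rose in FSAP-/-. The median interaction was -0.46. It was -0.88 without the arrays with Y-linked signal, where replicate 3, the lowest of its group, is the only BDL_FSAP-/- array. Below an unadjusted p of 0.05, 14 members were negative and none positive, against 7.77% and 5.92% of all genes. The list level was -0.57, -0.46 and -0.62 on the BDL-WT arrays and -1.04, -0.88 and -1.39 on the BDL_FSAP-/- arrays, without overlap, while the sham arrays of both genotypes stood between -0.02 and 0.00. Asl, which splits argininosuccinate, stood at 0.32 in WT (adjusted p = 0.163) and fell by 0.75 in FSAP-/- (interaction -1.06, SE 0.23). Sds, the serine dehydratase gene, stood at 0.84 (adjusted p = 0.112) and fell by 1.43, and Tat, which breaks down tyrosine, stood at 0.41 (adjusted p = 0.330) and fell by 1.17. Amdhd1, of histidine breakdown, went against the list and fell further in WT, by 2.39 against 1.72. With the Y-linked signal as a covariate 3 members were called, all negative.

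Acute phase genes, which hepatocytes switch on in inflammation, rose in 17 of 39 cases in WT and in 9 of 39 in FSAP-/-, and fell in 2 and 8. The median response was 1.05 in WT and 0.30 in FSAP-/-, and the median interaction was -0.78 (-1.21 within slides), with 9 negative and no positive member below an unadjusted p of 0.05. The arrays varied within groups, at 1.32, 1.14 and 0.20 in BDL-WT and -0.26, 0.49 and 0.29 in BDL_FSAP-/- livers, so the groups overlapped. Serpina3k and Serpina3m, neighbours of 1 inhibitor cluster whose probes may share signal, stood at -0.06 and 0.06 in WT and fell by 1.52 and 1.47 in FSAP-/-. Saa1, serum amyloid A, rose by 4.29 in WT and stood at 2.16 in FSAP-/- (adjusted p = 0.0874), and the 95% interval of its interaction ran from -5.01 to 0.76. Among 25 complement genes the median was -0.48 (-0.31 without replicate 1 of BDL-WT and -0.77 within slides). Below an unadjusted p of 0.05, 6 members were negative and 2 positive, against 7.77% and 5.92% of all genes. C4bp, a complement inhibitor, rose by 1.17 in WT and stood at 0.12 in FSAP-/- (adjusted p = 0.638). C1qc, made by macrophages, was positive at 1.14.

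Bile transport and coagulation genes had smaller medians. Over 22 transporters the median interaction was -0.34 (-0.58 within slides and -0.52 without the arrays with Y-linked signal). Below an unadjusted p of 0.05, 6 members were negative and 1 positive, against 7.77% and 5.92% of all genes. Abcb11, the bile salt export pump, stood at -0.48 in WT (adjusted p = 0.0683) and fell by 1.32 in FSAP-/- (interaction -0.85, SE 0.26, adjusted p = 0.191). Slc51b, part of the basolateral bile acid exporter, rose by 2.95 and 1.66. Abcc4, another basolateral exporter, stood at -0.25 in WT (adjusted p = 0.714) and rose by 1.65 in FSAP-/-. Cyp7a1, the rate-limiting enzyme of bile acid synthesis, had an interaction of 0.45 (SE 0.72), which turned negative without the arrays with Y-linked signal (-0.34). Cyp8b1 fell by 4.75 and 4.08. Over 46 coagulation and fibrinolysis genes the median was -0.29 (-0.51 within slides). F11, coagulation factor XI, stood at -0.39 in WT (adjusted p = 0.279) and fell by 2.04 in FSAP-/- (interaction -1.65, adjusted p = 0.127). Plau, urokinase, which activates plasminogen and is cleaved by FSAP, rose by 1.43 in WT. It was not above background on any Sham FSAP-/- array and rose at least 8.56-fold in FSAP-/- (adjusted p of the interaction 0.135).

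**Figure D4:**
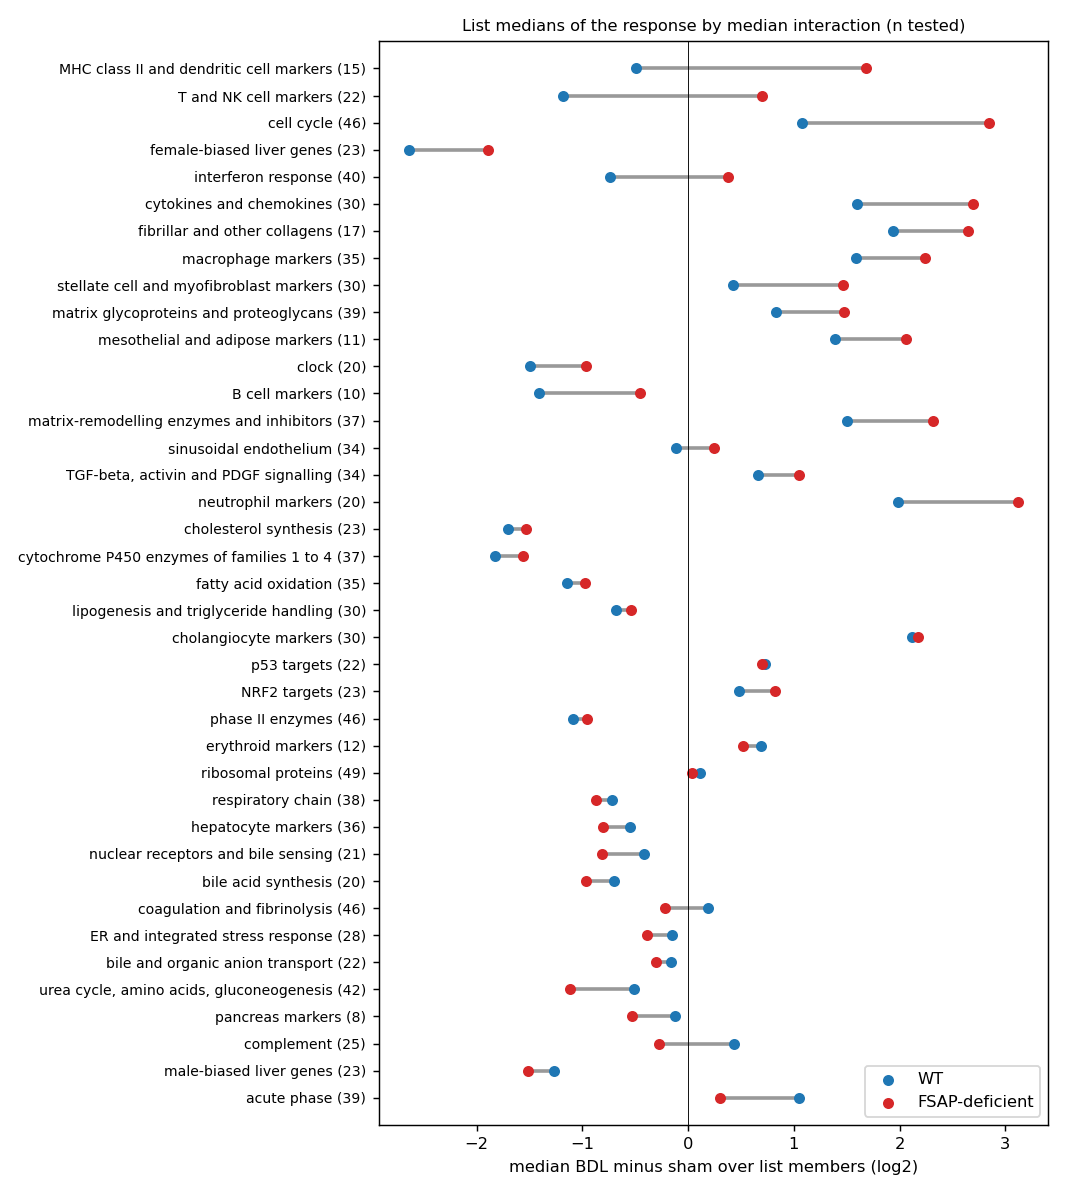
Median BDL minus sham over the tested members of 39 gene lists (x axis, log2) in WT (blue) and FSAP-/- livers (red), ordered by the median interaction, with the number of members in brackets. The genotypes lie farthest apart in the class II, T and NK and cell cycle lists at the top and close together for cholangiocyte markers (2.12 and 2.17) and ribosomal proteins (0.11 and 0.04).

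The median interaction of several other lists lay nearer 0. Cholangiocyte markers rose by a median of 2.12 in WT and 2.17 in FSAP-/- livers, with 21 of 30 rising in each, and their median interaction was 0.12. The duct keratins Krt19 and Krt7 had interactions of 0.22 (95% interval -1.16 to 1.59) and 0.61 (-1.02 to 2.24). Single members still parted: Krt23 stood at -1.41 in WT (adjusted p = 0.0917) and rose by 2.15 in FSAP-/-, and Elf3, an epithelial transcription factor, rose at least 41.9-fold in WT and at least 9.76-fold in FSAP-/-. Cytochrome P450 enzymes of families 1 to 4 had medians of -1.83 and -1.56, respiratory chain subunits -0.72 and -0.87, fatty acid oxidation genes -1.15 and -0.98, and ribosomal proteins 0.11 and 0.04. The median interaction of the P450 list, 0.24, was -0.44 without the arrays with Y-linked signal, and that of the ribosomal list, -0.11, was 0.27. For Alb the interaction was -0.19 (95% interval -0.87 to 0.49), and it turned to 0.15 under quantile normalization.

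Genes with sex-biased expression in the liver differed between arrays of 1 group. The list of 23 female-biased genes stood at -6.03 on replicate 1 of Sham FSAP-/- against -0.53 and -0.04 on its group mates, and at -5.19, -5.63 and -3.14 on the BDL_FSAP-/- arrays, of which replicates 1 and 2 carry Y-linked signal. On the BDL-WT arrays, none with that signal, it stood at -2.38, -3.95 and -2.30. Its median interaction was 1.35, but -0.39 without replicate 1 of Sham FSAP-/- and 2.60 without replicate 2 or 3 of that group. The 23 male-biased genes had a median of -0.67, but 0.66 without replicate 1 of Sham FSAP-/- and 0.12 without replicate 3 of BDL_FSAP-/-. No member of either list was called.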

How the data were processed

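Liver RNA (100 ng, integrity of at least 7.2) was hybridised to one-colour Agilent arrays, per the labels' protocols. The deposited probe intensities are processed signals from Agilent Feature Extraction 10.5.1.1, per the file headers, with the background already subtracted and probes placed on mm9. Log2 values deposited by the authors served as an alternative, and how they were made is not stated in the labels or headers. Intensities were taken to log2 and the 75th percentile of each array was subtracted. The brightest probe stood for a gene, and genes that reached well above background on 3 or more of the 12 arrays were tested with limma 3.58.1 in R 4.3.3 on 4 group means, with Benjamini-Hochberg adjustment and a false discovery rate of 0.05. Outlier spots were left out, 79 values in all, and the fits were tested on simulated data. A gene seen below background on all arrays of a group is given by a bound ("at least N-fold") from the lowest signal well above background on each array.

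Genes were named if called, among the 10 smallest p in each direction, among the 3 smallest p of a list or its strongest member against the list, if both responses passed in opposite directions, or as fixed markers. H2-Aa, Tpx2 and Cdc45 were added after their values were seen, and 1 gene that the rule names is not reported here. The members and lists were chosen with earlier results of these data known. Alternatives covered scaling, background, filters, slide, replicate number, Y-linked signal and each array left out. 2 alternatives, replicate 1 of Sham FSAP-/- left out for its slide and the mean response used to choose genes for the size comparison, were chosen after seeing the data. A list's median interaction is the median of its members' differences. The labels call the samples separate mice. Of 33063 probes with an accession, 26412 matched RefSeq.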

Additional observations from a re-analysis of the deposited data

Results flagged for a closer look

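The responses of the genotypes differed by the interaction test of limma, after Benjamini-Hochberg adjustment, for Sema4d (interaction 3.08, adjusted p = 0.0244) and LOC100041034 (interaction 1.78, adjusted p = 0.0244). Both were higher on 3 of 3 BDL_FSAP-/- arrays than on any other array. No Sham FSAP-/- array was above background for Sema4d, so the size of its interaction rests in part on levels below background. With 3 mice in each group, no array could be tested as an outlier of its group.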

How the results depend on the processing

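The number of genes with a called interaction was 2 (2 positive, 0 negative). It was 12 with normexp background correction (8 and 4), 41 with array weights (26 and 15), 365 with Y-linked signal as a covariate (167 and 198) and 264 without the arrays that carry it (84 and 180). No filter on dim probes gave 0. Slide as a fixed block gave 1 positive and 1 negative gene, neither of them called in the full model, and the mean over probes of a gene and a trended robust prior gave 1 negative gene each. With 1 array left out in turn the count lay between 0 and 22, with 0 to 20 positive and 0 to 2 negative. The replicate block gave 0 genes (adjusted p = 0.0994 for Sema4d). The labels do not say what same-numbered arrays share. Of 18 correlations of their deviations, 2 were over 0.1, which cannot show that the numbers stand for nothing shared. Sema4d and LOC100041034 kept the call under 11 of 14 settings each, and under 5 and 3 of the 12 with 1 array left out.

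Of 1169 values of 45 named genes under all settings, 13 reversed, in 5 genes, all small or uncalled. Habp2 was 0.18 without the arrays with Y-linked signal and 0.091 without replicate 1 of Sham FSAP-/-, and with 1 array left out it ran from -1.55 to 0.091. Alb was 0.15 under quantile normalization, 0.15 in the authors' deposited log2 values and 0.0058 without replicate 3 of BDL_FSAP-/-, and with 1 array left out it ran from -0.36 to 0.0058. Cyp7a1 was -0.34 without the arrays with Y-linked signal, -0.0071 without replicate 3 of Sham-WT and -0.088 without replicate 1 of Sham FSAP-/-, and with 1 array left out it ran from -0.088 to 0.88. Timp1 was -0.052 with array weights and -0.45 without replicate 3 of BDL_FSAP-/-, and with 1 array left out it ran from -0.45 to 1.69. Krt19 was -0.0009 without replicate 2 of Sham-WT, and -0.17 without replicate 2 of BDL-WT or of BDL_FSAP-/-, and with 1 array left out it ran from -0.17 to 0.71. Of 720 list medians, 645 stayed within the spread and 75 moved. Among the 20 lists with a median of at least 0.4 in size, 5 had the opposite sign in some setting: B cell, female-biased, male-biased, pancreas and sex-chromosome genes. The cause of these moves was not tested. With 3 arrays in each group, their number limits the precision, and probes near background give only bounds.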
